A study of Mus musculus with 8 samples.

Results

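Amino acids cross cell membranes through solute carrier (Slc) proteins, and this account follows the expression of 6 families of these genes, Slc1, Slc3, Slc7, Slc36, Slc38 and Slc43, in mouse fat. Members were taken by symbol: a row of the array counted when the platform annotation gave it exactly 1 gene symbol of these families, and the brightest row stood for each gene. This gave 43 genes, on 45 rows, of 19310 genes on 20748 rows with 1 symbol. Slc38a1 and Slc38a9 had a second row each, with log2 fold changes of 0.08 and −0.01. The symbol rule also took in Slc7a6os, which lies beside Slc7a6 on the opposite strand and does not encode a transporter, so 42 of the 43 are carriers or their partner chains.

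The study compared the epididymal depot of white fat between mice labelled as lacking Rev-erb alpha and wild-type (WT) mice, with 4 arrays in each group. Rev-erb alpha, encoded by Nr1d1, is a nuclear receptor that represses transcription as an arm of the circadian clock. Both groups were C57BL/6 males 12 to 15 weeks old on standard chow and 12 h of light and 12 h of dark, and fat was taken at Zeitgeber time 10, that is 10 h after the lights came on. The sources used here do not say how the knockout allele was made or whether the gene was lost in every tissue. Since the labels only number the replicates and name no separate animals, the spread that the p-values measure may be technical.

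Carriers of these families differ in substrate and in coupling. Slc3a2 is the heavy chain (CD98) that forms a disulfide-linked pair with an Slc7 light chain and takes it to the cell surface, and the light chain (Slc7a5, Slc7a6, Slc7a7, Slc7a8, Slc7a10 or Slc7a11) does the transport, as an exchanger. Slc43a1 and Slc43a2 pass large neutral amino acids without a heavy chain. Slc1 carriers take up glutamate, aspartate or small neutral amino acids with sodium. Slc38 carriers take up glutamine and alanine with sodium, and Slc36a1 and Slc36a2 move proline, glycine and alanine with protons. In fat, amino acids feed protein synthesis, the glutamine and glutamate pools and the breakdown of branched-chain amino acids.

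The row of Nr1d1 itself read 9.56, 9.28, 8.90 and 8.80 log2 in the 4 knockout-labelled arrays, against 9.47, 9.11, 9.18 and 9.83 log2 in the 4 WT arrays. The groups overlapped, with a log2 fold change of −0.26 (SE 0.19, limma adjusted p = 0.479), and which piece of the transcript this row reads was not given, so it does not check the labels. The arrays are therefore called knockout-labelled, and every direction below rests on the label. Arntl (Bmal1), a clock gene that Rev-erb alpha represses, was 1.85 log2 higher (adjusted p = 3.20e-05) and Klb, the co-receptor of the hormone FGF21, 1.24 log2 higher (adjusted p = 0.00054). The 9 adipocyte markers of this tissue had a mean level of 11.90 to 11.97 log2 in knockout-labelled and 11.81 to 11.93 log2 in WT arrays, and members of that list moved in both directions, as given with the other cell types.

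Array medians lay between 5.90 and 5.95 log2, and all 8 arrays correlated at 0.989 or more. Knockout-labelled arrays 1 and 2 stood apart from arrays 3 and 4 on the second principal component, which carried 14.7% of the variance. WT array 1 stood apart in genes of epithelium, as described with the members it touches. For members whose values rest on these arrays, log2 fold changes are given with and without them.

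Limma called 5 of the 43 genes changed at an adjusted p under 0.05, or 11.6%, where 7.4% of all rows tested were called. Slc3a2, Slc7a6, Slc7a8 and Slc43a2 were higher in knockout-labelled fat, 4 genes or 9.30% beside 3.81% of all rows. Slc1a3 was lower, 1 gene or 2.33% beside 3.59% of all rows. The count of all called rows, 1536, was 913 without knockout-labelled array 4, 972 without WT array 3 and 1004 without WT array 4, and the 5 members were called in each of these fits. The median log2 fold change was 0.06 over the 43 genes and −0.0064 over all rows. Knockout-labelled and WT arrays did not overlap at all for 9 members, or 20.9%, beside 15.3% of all rows. Of these 9, the 4 called genes above and Slc36a1, Slc36a4 and Slc38a10 lay higher in knockout-labelled arrays, and Slc1a3 and Slc7a6os lay lower. The 38 genes that were not called ranged from −0.51 to 0.36, with 22 above 0 and 16 below. There were 14 dim members, below 5.00 log2 on average, which is where the dimmest 33.3% of all rows lay, and none of them was called (none at an adjusted p under 0.05 in limma).

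**Figure D1:**
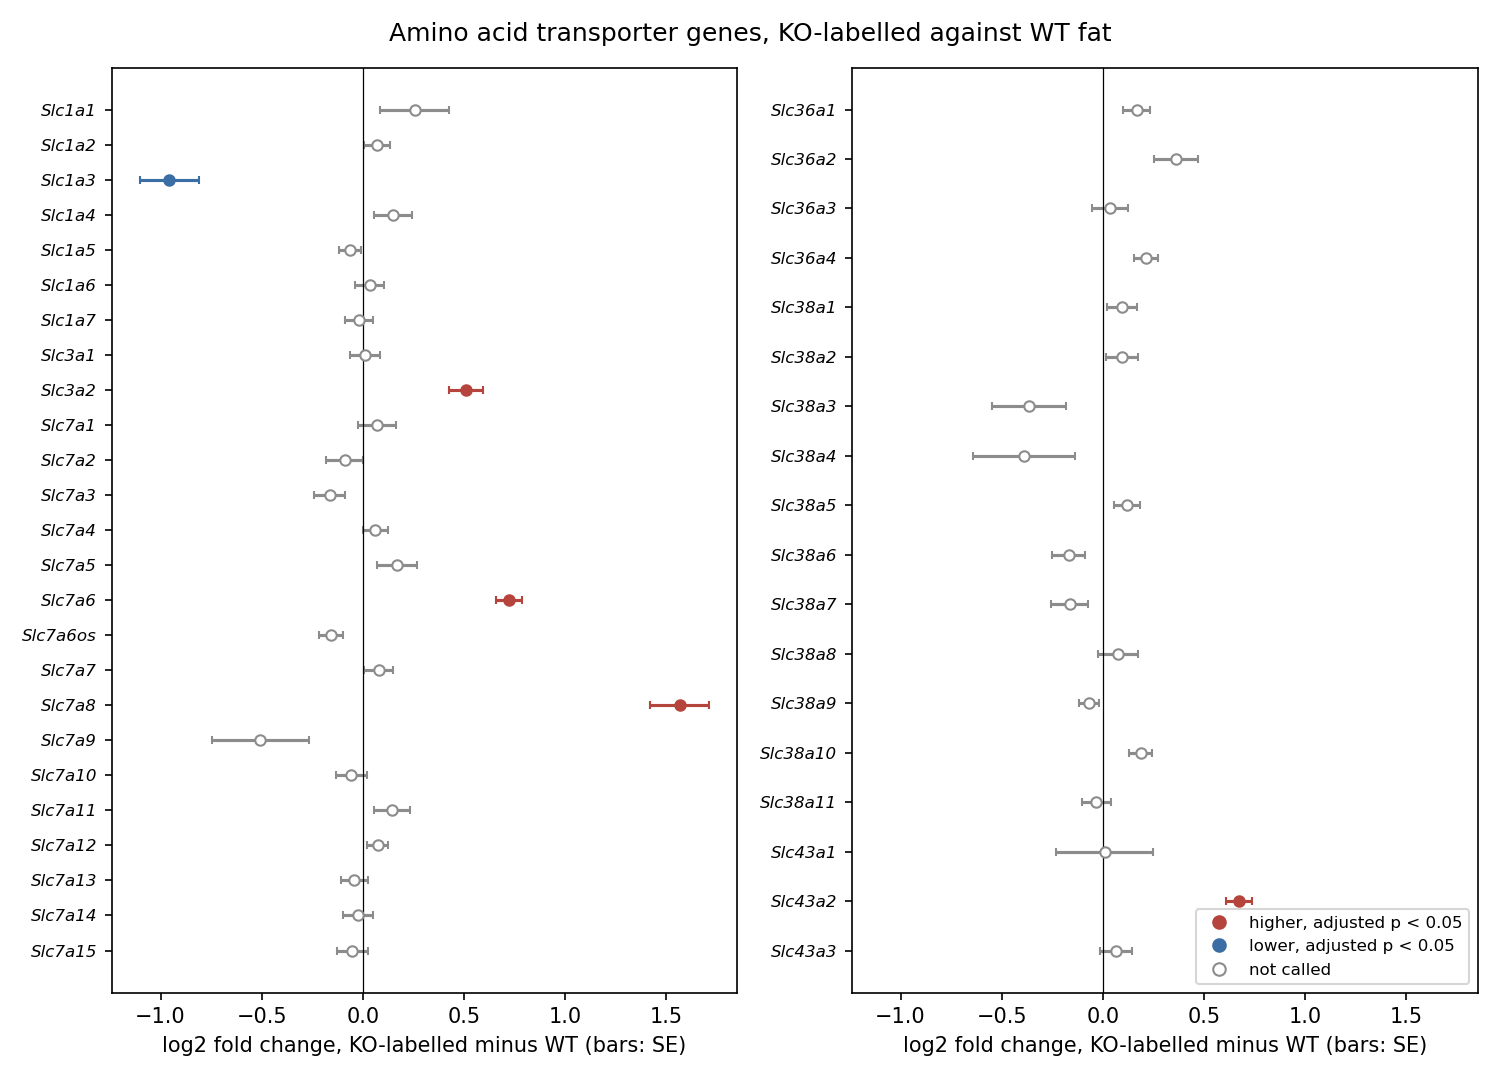
Log2 fold change of each of the 43 genes (horizontal axis, knockout-labelled minus WT, points with bars of 1 SE, n = 4 arrays per group), by gene. Filled points mark the 4 genes called higher, of which Slc7a8 reaches 1.57, and Slc1a3, called lower at −0.96. The open points of the 38 genes not called lie between −0.51 and 0.36.

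Large neutral amino acids, such as leucine and phenylalanine, are carried by 4 of the genes, and 2 of these were called higher. Slc7a8, the light chain LAT2 that exchanges neutral amino acids, read 8.95, 9.24, 8.78 and 8.73 log2 in knockout-labelled arrays, against 7.00, 7.65, 7.28 and 7.50 log2 in WT arrays. The lowest knockout-labelled array lay more than 1 log2 unit above the highest WT array. Its mean was 2.96-fold higher (log2 fold change 1.57, SE 0.15, limma adjusted p = 0.000216), the widest change of the 43 genes. Slc43a2 (LAT4), a uniporter of branched-chain amino acids, phenylalanine and methionine, read 7.10, 7.18, 7.12 and 7.22 log2 in knockout-labelled arrays, against 6.44, 6.43, 6.41 and 6.65 log2 in WT arrays. The groups were again apart, and the knockout-labelled arrays lay close together, at a mean 1.59-fold that of WT (log2 fold change 0.67, SE 0.06, adjusted p = 0.000275).

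The other 2 carriers of large neutral amino acids were not called. Slc7a5 (LAT1), the high-affinity light chain of growing cells, read 6.91, 7.00, 7.05 and 7.16 log2 in knockout-labelled arrays, against 7.09, 6.91, 6.84 and 6.59 log2 in WT arrays. The groups overlapped, with a log2 fold change of 0.17 (SE 0.10, limma adjusted p = 0.357). Slc43a1 (LAT3), the closest relative of Slc43a2 among the members, had a log2 fold change of 0.01 (SE 0.24, adjusted p = 0.988). Its arrays, listed here after their values were seen, read 8.53, 8.47, 7.46 and 7.77 log2 with the knockout label, against 8.23, 7.70, 7.85 and 8.40 log2 in WT. Knockout-labelled arrays 1 and 2 were the highest of all 8 and array 3 the lowest, so the log2 fold change was 0.45 with arrays 1 and 2 alone and −0.43 with arrays 3 and 4 alone (adjusted p = 0.243 and 0.219).

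The heavy chain Slc3a2 was higher as well. It read 10.72, 10.95, 10.90 and 10.98 log2 in knockout-labelled arrays, against 10.29, 10.51, 10.22 and 10.50 log2 in WT arrays. Every knockout-labelled array lay above every WT array, and the mean was 1.42-fold higher (log2 fold change 0.51, SE 0.08, limma adjusted p = 0.00583). When arrays 1 and 2 stood alone for the knockout label, the log2 fold change was 0.46 and the call was lost (adjusted p = 0.0620). Slc3a1 (rBAT), the heavy chain of kidney and intestine and the partner of Slc7a9, was among the dim rows, with a log2 fold change of 0.01.

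Slc7a6 (y+LAT2), which exchanges arginine for glutamine or leucine with sodium, was the other light chain called. It read 8.57, 8.49, 8.52 and 8.32 log2 in knockout-labelled arrays, against 7.74, 7.80, 7.80 and 7.67 log2 in WT arrays. The groups were apart, with WT arrays close together, at a mean 1.65-fold higher (log2 fold change 0.72, SE 0.06, limma adjusted p = 0.000185). The row of its neighbour Slc7a6os read lower in each knockout-labelled array and was not called (log2 fold change −0.16, adjusted p = 0.154). Its 4 knockout-labelled arrays read 6.64 to 6.86 log2 and its 4 WT arrays 6.86 to 6.94 log2.

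**Figure D2:**
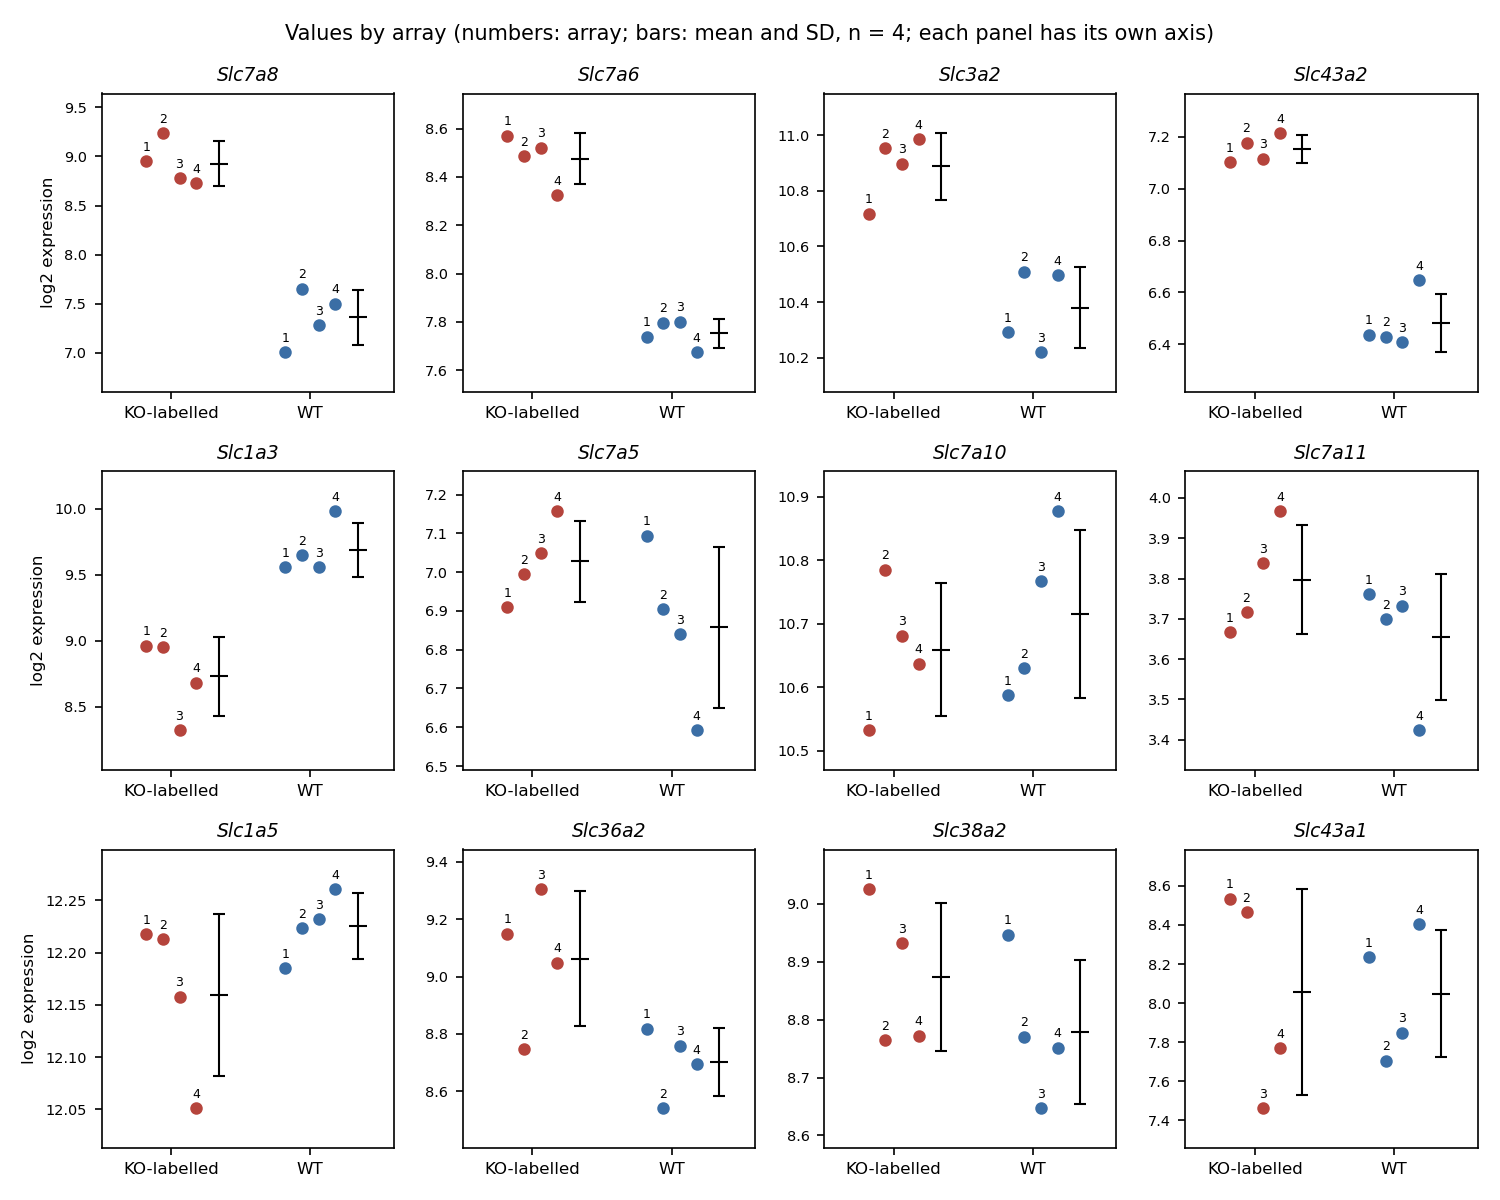
Log2 expression of 12 members in each array (vertical axis, each panel with its own range), knockout-labelled arrays on the left and WT arrays on the right, numbered by array, with the mean and SD (n = 4) beside them. The groups are apart for Slc7a8, Slc7a6, Slc3a2, Slc43a2 and Slc1a3 and overlap in the other 7 panels, and Slc43a1 shows knockout-labelled arrays 1 and 2 above arrays 3 and 4.

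The promoters of the 3 called genes that make up heavy and light chain pairs are shown because all 3 were called higher. Each sequence covers 250 bases before the start of the gene and 50 after, on the gene's own strand, from RefSeq on GRCm38.p6. Slc3a2 lies on chromosome 19 (chr19:8713848-8714147, minus strand), Slc7a6 on chromosome 8 (chr8:106168604-106168903, plus strand) and Slc7a8 on chromosome 14 (chr14:54781837-54782136, minus strand). Capitals mark the only match to the motifs searched, a TGACNNNGC in Slc7a6.
Slc3a2: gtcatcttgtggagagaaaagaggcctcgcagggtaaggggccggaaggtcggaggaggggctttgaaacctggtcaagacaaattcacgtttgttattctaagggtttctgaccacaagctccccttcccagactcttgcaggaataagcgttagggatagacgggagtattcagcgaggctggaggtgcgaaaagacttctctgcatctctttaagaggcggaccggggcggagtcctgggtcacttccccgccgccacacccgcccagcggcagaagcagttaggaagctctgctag
Slc7a6: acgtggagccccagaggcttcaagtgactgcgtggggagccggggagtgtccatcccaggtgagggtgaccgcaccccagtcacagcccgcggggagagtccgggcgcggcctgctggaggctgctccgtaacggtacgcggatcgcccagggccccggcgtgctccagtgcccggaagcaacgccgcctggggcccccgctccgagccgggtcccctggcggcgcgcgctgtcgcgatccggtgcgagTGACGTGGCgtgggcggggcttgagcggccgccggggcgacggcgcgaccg
Slc7a8: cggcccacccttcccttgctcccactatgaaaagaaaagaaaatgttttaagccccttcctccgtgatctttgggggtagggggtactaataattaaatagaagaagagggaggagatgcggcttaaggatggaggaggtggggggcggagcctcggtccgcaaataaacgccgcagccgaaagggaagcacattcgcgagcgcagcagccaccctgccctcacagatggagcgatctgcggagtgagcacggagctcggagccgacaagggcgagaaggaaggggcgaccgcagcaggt
The table held 43 promoters for 32 of the 43 genes, 7 of them for the 5 called genes, and 5 motifs were searched on both strands. The half-site of Rev-erb and ROR receptors, TAGGTCA, occurred in 2.61% of all 32851 promoters of this length and in no member's promoter. The D-box TTANGTAA (2.32% of all promoters) had no match among the members either. The E-box CACGTG (7.15%) matched in 7 of the 43 member promoters, those of 7 genes, none of them called. TGATGNAA, the core of the element that ATF4 binds with CEBP proteins (3.97%), matched in 4 of the 43 member promoters, those of Slc1a4, Slc7a7 and Slc7a11. The core of the antioxidant response element, TGACNNNGC (12.4%), matched in 6 of the 43 member promoters, those of Slc36a1, Slc38a2, Slc43a1, Slc7a1 and Slc7a6. These motifs can share bases where they overlap, and a match is a run of letters, not a bound site.

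Whether each light chain moved in step with the heavy chain was compared within arrays, as the log2 value of the light chain minus that of Slc3a2, which removes any scale that an array shares. The difference between groups is the quantity given, since values of different rows do not compare as levels. It was 1.06 log2 for Slc7a8 (SE 0.16, n = 4 arrays per group, exact two-sided permutation p = 0.0286), with all knockout-labelled arrays above all WT arrays. For Slc7a6 it was 0.21 log2 (SE 0.14, exact permutation p = 0.171), and the groups overlapped. Slc7a10 lay the other way, at −0.57 log2 (SE 0.10), as did Slc7a7, at −0.43 log2 (SE 0.13). For both, all knockout-labelled arrays lay below all WT arrays (exact permutation p = 0.0286 each). Slc7a5, at −0.34 log2, and Slc7a11, at −0.37 log2, overlapped between groups (exact permutation p = 0.114 each). Slc3a2 itself was 0.51 log2 higher, so a light chain that stays level takes a negative difference here. The log2 fold changes of the light chains alone were −0.06 for Slc7a10, 0.08 for Slc7a7, 0.17 for Slc7a5 and 0.14 for Slc7a11. With 4 arrays against 4, 0.0286 is the smallest p this test can give, and after adjustment over the 6 pairs it became 0.0571, so none passed.

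**Figure D3:**
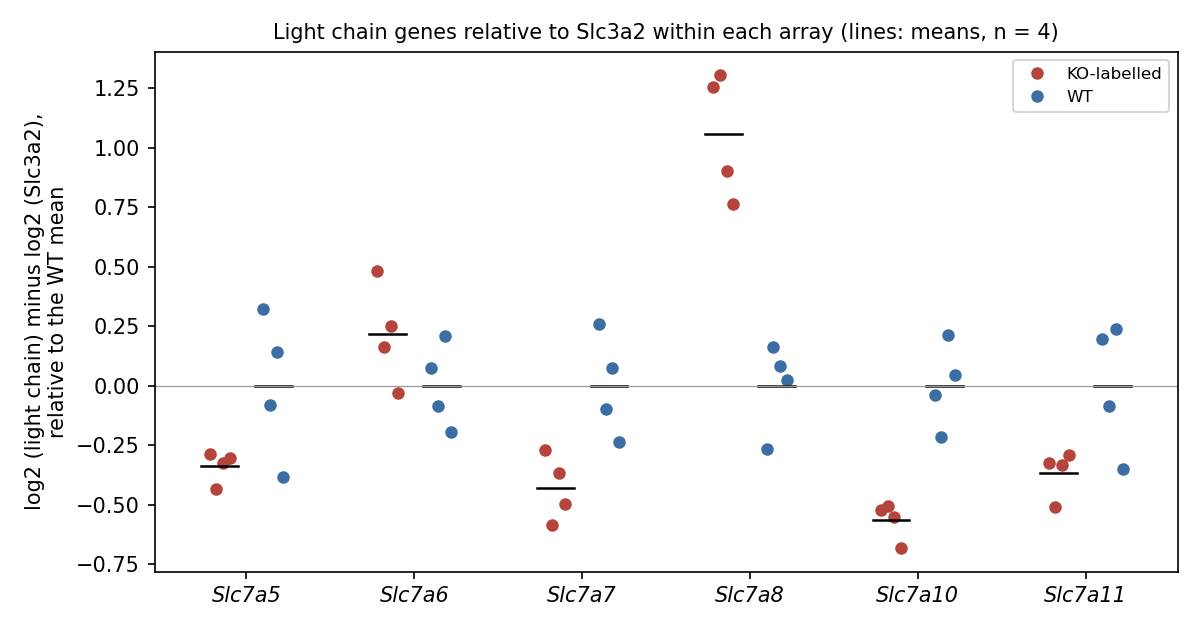
Difference between each light chain and Slc3a2 within an array (vertical axis, log2, set to 0 at the WT mean), for knockout-labelled arrays (left of each pair) and WT arrays (right), with lines at the means of 4 arrays. Slc7a8 is the light chain whose knockout-labelled arrays all lie above WT, at a mean of 1.06, and those of Slc7a7 and Slc7a10 all lie below WT.

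The light chains that lay lower against Slc3a2 were themselves not called. Slc7a10 (Asc-1), an exchanger of small neutral amino acids known as a surface marker of white adipocytes, read 10.53, 10.79, 10.68 and 10.64 log2 in knockout-labelled arrays, against 10.59, 10.63, 10.77 and 10.88 log2 in WT arrays. The groups overlapped (log2 fold change −0.06, SE 0.08, limma adjusted p = 0.739). Slc7a7 (y+LAT1), the light chain of macrophages, kidney and intestine, stood at 0.08 log2 (SE 0.07, adjusted p = 0.591). Slc7a11 (xCT), which brings in cystine for glutamate and so feeds glutathione, was among the dim rows. It read 3.67, 3.72, 3.84 and 3.97 log2 in knockout-labelled arrays, against 3.76, 3.70, 3.73 and 3.42 log2 in WT arrays. The groups overlapped (log2 fold change 0.14, SE 0.09, adjusted p = 0.402). The 3 carriers of cationic amino acids that need no heavy chain, Slc7a1, Slc7a2 and Slc7a3, stood at 0.07, −0.09 and −0.16 log2 and were not called (0 with an unadjusted p under 0.05). The less studied Slc7a4, Slc7a14 and Slc7a15 stood at 0.06, −0.03 and −0.05 log2, and Slc7a12 at 0.07 log2.

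Among the 6 carriers of acidic amino acids only Slc1a3 was called, and it was lower. Slc1a3 (GLAST), which takes up glutamate and aspartate with sodium, read 8.96, 8.95, 8.32 and 8.68 log2 in knockout-labelled arrays, against 9.56, 9.65, 9.56 and 9.98 log2 in WT arrays. The highest knockout-labelled array lay below the lowest WT array, and the mean was 1.94-fold lower (log2 fold change −0.96, SE 0.15, limma adjusted p = 0.0037). It was −1.18 with knockout-labelled arrays 3 and 4 alone and −0.73 with arrays 1 and 2 alone, and both passed the test. Slc1a2 (GLT-1), Slc1a6 and Slc1a7, the other plasma membrane glutamate carriers, stood at 0.07, 0.03 and −0.02 log2, and Slc7a13, an aspartate and glutamate carrier of kidney, at −0.04 log2.

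Slc1a1 (EAAT3), the carrier of glutamate and cysteine, divided the knockout-labelled arrays, and its values were picked out after they were seen. It read 5.67, 5.97, 6.44 and 6.60 log2 in those arrays, against 5.92, 5.84, 5.89 and 6.00 log2 in WT arrays. Arrays 3 and 4 lay above every WT array, and arrays 1 and 2 did not. The log2 fold change was 0.26 over all arrays (SE 0.17, limma adjusted p = 0.435), 0.61 with arrays 3 and 4 alone (adjusted p = 0.00247) and −0.10 with arrays 1 and 2 alone (adjusted p = 0.663). Because the gene was chosen for this split, the p-values of the 2 pairs do not test it.

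None of the 8 carriers of small neutral amino acids was called by limma. An unadjusted limma p under 0.05 was seen for 3, with no share over all rows computed at that threshold. Of the 8, 4 belong to the Slc36 family, among them those 3. Slc36a2 (PAT2), a proton-coupled carrier known as a surface marker of brown and beige adipocytes, read 9.15, 8.75, 9.31 and 9.05 log2 in knockout-labelled arrays, against 8.82, 8.54, 8.76 and 8.69 log2 in WT arrays. Knockout-labelled array 2 fell within the WT range and the other 3 lay above it (log2 fold change 0.36, SE 0.11, limma adjusted p = 0.0765). Without that array, picked after its value was seen, the log2 fold change was 0.46 and Slc36a2 was called (adjusted p = 0.0132). No other single array left out gave a call, and the limma adjusted p then reached up to 0.176. Slc36a4 stood at 0.21 log2 (adjusted p = 0.0570) and was also called without knockout-labelled array 2 (adjusted p = 0.0344). It too was not called with any other single array left out (limma adjusted p up to 0.130). Slc36a1 (PAT1), the carrier of lysosomes that works with mTORC1, stood at 0.17 log2, and Slc36a3 at 0.03 log2. The 5 genes of the brown or beige adipocyte list, given beside Slc36a2, had a mean level of 5.02 to 5.32 log2 in knockout-labelled and 5.10 to 5.37 log2 in WT arrays, with Ppargc1a called lower and a median log2 fold change of −0.06. Of the 5, Dio2 at 0.21 and Ucp1 at 0.05 log2 lay above 0 and were not called, and the other 3 lay below. Ucp1, Cidea and Dio2 were among the dim rows. The part of brown or beige adipocytes in the values of Slc36a2 was not tested.

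Slc1a5 (ASCT2), the sodium-dependent exchanger of glutamine, was close to level across all 8 arrays. It read 12.22, 12.21, 12.16 and 12.05 log2 in knockout-labelled arrays, against 12.19, 12.22, 12.23 and 12.26 log2 in WT arrays. The groups overlapped, with a log2 fold change of −0.07 (SE 0.05, limma adjusted p = 0.547). Slc1a4 (ASCT1), the serine and alanine exchanger, stood at 0.15 log2 and was not called.

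The Slc38 family of 11 genes, which holds the main sodium-coupled carriers of glutamine and alanine, had no member called by limma (1 had an unadjusted p under 0.05, Slc38a10). Slc38a2 (SNAT2), the system A carrier induced when amino acids run short, read 9.03, 8.76, 8.93 and 8.77 log2 in knockout-labelled arrays, against 8.95, 8.77, 8.65 and 8.75 log2 in WT arrays. The groups overlapped, with a log2 fold change of 0.09 (SE 0.08, limma adjusted p = 0.560). Slc38a1 and Slc38a5 stood at 0.09 and 0.12 log2, Slc38a7 and Slc38a8 at −0.16 and 0.08 log2, and Slc38a9, the arginine sensor of the lysosome, at −0.07 log2. Slc38a10, whose substrates are less settled, lay higher in every knockout-labelled array at 0.19 log2 (adjusted p = 0.0786), and Slc38a6 and Slc38a11 stood at −0.17 and −0.03 log2. Slc43a3, a nucleobase carrier by function, stood at 0.06 log2.

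The 3 most negative values among the genes not called, those of Slc7a9, Slc38a4 and Slc38a3, went with WT array 1, and their arrays are listed after the values were seen. Slc7a9, the light chain of the kidney's cystine carrier, read 4.18, 4.04, 4.35 and 4.35 log2 in knockout-labelled arrays, against 5.59, 4.70, 4.21 and 4.45 log2 in WT arrays. Slc38a4, a system A carrier of liver, read 4.19, 4.13, 4.36 and 4.16 log2 in knockout-labelled arrays, against 5.55, 4.48, 4.16 and 4.22 log2 in WT arrays. Slc38a3 (SNAT3), a glutamine carrier of liver and kidney, read 4.87, 4.85, 5.28 and 5.04 log2 in knockout-labelled arrays, against 6.01, 5.24, 5.14 and 5.12 log2 in WT arrays. WT array 1 was the highest of all 8 for each, and without it the log2 fold changes were −0.22 for Slc7a9, −0.07 for Slc38a4 and −0.15 for Slc38a3, in place of −0.51, −0.39 and −0.36. The same array was the highest for all 11 genes of a ciliated epithelium list, with a mean level of 5.24 log2 beside 4.36 to 4.56 log2 in the other 7 arrays. It was the highest for 9 of 10 genes of an epithelium list, at 6.11 log2 beside 5.14 to 5.52 log2, and for 6 of 7 mesothelial markers, at 8.46 log2 beside 8.08 to 8.25 log2. The first 2 lists were chosen after the array was seen to stand apart, and their part in these 3 genes was not tested. Markers of the epididymal epithelium itself were low in every array, at 3.95 to 4.01 log2 in knockout-labelled and 4.00 to 4.04 log2 in WT arrays.

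**Figure D4:**
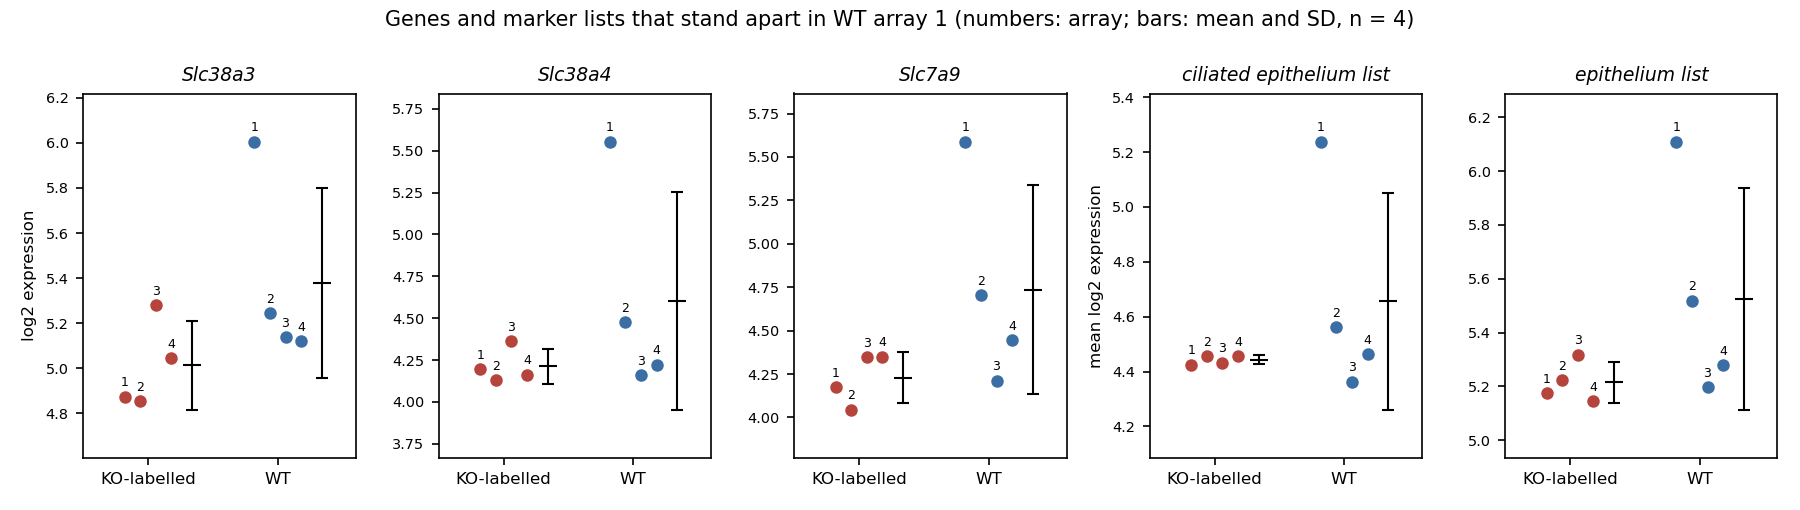
Log2 expression of Slc38a3, Slc38a4 and Slc7a9, and mean log2 level of 11 ciliated epithelium genes and 10 epithelium genes, in each array (vertical axis, each panel with its own range), knockout-labelled arrays left and WT arrays right, numbered, with mean and SD (n = 4). WT array 1 is the highest point in all 5 panels.

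Genes that use or sense amino acids were read from lists of the pathway. Their counts stand beside all rows tested, of which 7.4% were called, 3.81% higher and 3.59% lower. None of the 12 other amino acid carriers of the plasma membrane was called, among them the Slc6 carriers of glycine and proline, and their median log2 fold change was 0.02. None of 15 carriers of mitochondria, lysosomes and vesicles was called either, with a median of −0.04. None of 27 genes that sense amino acids upstream of mTORC1, the kinase complex that reports amino acid supply, was called (median 0.02). At an unadjusted limma p under 0.05 there were 1, 1 and 2 genes in these 3 lists. The share of all rows at that unadjusted threshold was not computed, so such counts are no measure of an excess.

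Among 23 measured genes of the integrated stress response and targets of ATF4, the factor that induces many amino acid carriers, 5 were higher and 1 lower, with a median of 0.06. At an unadjusted p under 0.05, 7 were higher and 3 lower, with no share over all rows computed at that threshold. The 4 called genes with the smallest p follow. Nupr1, a stress-induced chromatin protein, was 0.56 log2 higher (limma adjusted p = 0.000439), Cth, an enzyme of cysteine synthesis, 0.46 log2 higher (adjusted p = 0.00958) and Atf5, a factor related to ATF4, 0.36 log2 higher (adjusted p = 0.00914). Atf5 was not called where arrays 1 and 2 stood alone for the knockout label (adjusted p = 0.0595). Asns, asparagine synthetase and a standard target of ATF4, went the other way. It read 9.25, 9.35, 9.24 and 9.19 log2 in knockout-labelled arrays, against 9.52, 9.64, 9.69 and 9.68 log2 in WT arrays, a log2 fold change of −0.38 (SE 0.06, adjusted p = 0.00443). Atf4 itself stood at 0.05 log2, a gene named after its value was seen.

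In the list of glutamine, glutamate and proline metabolism, 1 of 10 genes was called, and the median was −0.05. Gpt, alanine aminotransferase, read 8.37, 8.24, 8.51 and 8.49 log2 in knockout-labelled arrays, against 7.72, 7.53, 7.81 and 7.64 log2 in WT arrays. The groups were apart, at 1.66-fold (log2 fold change 0.73, SE 0.08, limma adjusted p = 0.000536). Of 21 genes that break down branched-chain amino acids 1 was higher and 1 lower by the adjusted test, with a median of −0.13. At an unadjusted p under 0.05, 2 were higher and 9 lower, with no share over all rows computed at that threshold. Of the 21 log2 fold changes 15 lay below 0. Auh, a hydratase of leucine breakdown, was 0.41 log2 higher (adjusted p = 0.00684), and Mccc1, a subunit of the carboxylase of the same route, fell by 0.39 on the log2 scale (adjusted p = 0.0396). The Mccc1 call was lost without knockout-labelled array 2, 3 or 4 or WT array 2, 3 or 4 (adjusted p 0.0765 to 0.111). Of 12 genes of glutathione synthesis and NRF2 targets, Txnrd1, thioredoxin reductase, was the 1 called, at −0.24 log2 (adjusted p = 0.0486), and 4 were lower and none higher at an unadjusted p under 0.05 (median −0.02). Its call was lost without knockout-labelled array 1, 2 or 3 or any single WT array (adjusted p 0.0574 to 0.125).

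Fat holds several cell types, and in whole tissue fewer cells of a type cannot be told apart from less RNA per cell. Endothelial markers had a mean level of 8.53 to 8.67 log2 in knockout-labelled and 8.23 to 8.50 log2 in WT arrays, with Cldn5 and Pecam1 called higher of 6 and a median log2 fold change of 0.15. Smooth muscle and pericyte markers stood at 7.82 to 8.15 log2 in knockout-labelled and 7.54 to 7.84 log2 in WT arrays, with Rgs5 and Acta2 called higher of 6 (median 0.22). Progenitor and fibroblast markers stood at 8.85 to 9.01 log2 in knockout-labelled and 8.47 to 8.83 log2 in WT arrays, with Col1a1 and Pi16 called higher of 7 (median 0.14). The mean levels of the endothelial list and of the progenitor list thus did not overlap between the groups. In these means 1 gene can weigh heavily, and the largest log2 fold changes were those of Cldn5, at 0.99, and Col1a1, at 0.71. Of the endothelial markers 2 lay below 0, Kdr at −0.02 and Tie1 at −0.01 log2. Of the progenitor markers 2 did too, Dcn at −0.14 and Cd34 at −0.02 log2. So did 2 of the smooth muscle and pericyte markers, Myh11 at −0.21 and Cnn1 at −0.02 log2. Of the 9 mature adipocyte markers Lep, at 0.75 log2, and Aqp7, at 0.39 log2, were called higher, while 6 lay below 0 and the median was −0.07. Plin1, Lipe and Pparg, at −0.20, −0.15 and −0.26 log2, read lower in every knockout-labelled array than in any WT array and were not called (limma adjusted p 0.0529, 0.141 and 0.0962). Lep and Aqp7 were apart in the other direction, and the groups did not overlap for 15.3% of all rows. Macrophage markers stood at 7.18 to 7.51 log2 in knockout-labelled and 7.00 to 7.43 log2 in WT arrays, with Cd14 called lower of 7 (median 0.09). The other way lay 5 of the 7, from Mrc1 at 0.05 to Cd68 at 0.26 log2, none of them called. Of 7 mesothelial markers Msln was called higher, at 0.60 log2, and the other 6 lay below 0, from −0.31 to −0.09 log2, with a list median of −0.20. WT array 1 was the highest array for 6 of these 7 markers, and their values without it are not given. Of 6 skeletal muscle genes Actn3 was called lower, at −0.43 log2 (median −0.01). Above 0 lay 3 of the 6, among them Acta1 at 0.77 log2, which was not called (limma adjusted p = 0.0971). No T cell, B cell, germ cell, Schwann cell or erythroid marker was called (0 at an unadjusted limma p under 0.05). The genes named here were chosen after their values were seen. The part of any of these cell types in the values of Slc3a2, Slc7a6, Slc7a8, Slc43a2 or Slc1a3 was not tested.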

How the data were processed

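RNA of epididymal fat from 8 samples was measured on whole-transcript Affymetrix arrays. The values deposited by the authors are log2 expression values, 1 per row and array, and affy is the tool named by the submitters' processing notes. The sources used here do not give the background correction, normalization or summarization, and the log2 scale was inferred from the range of values (2.09 to 13.4). No detection calls were used here, and the number of arrays limits the precision.

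From these values, limma 3.58.1 in R 4.3.3 (lmFit, eBayes) was fitted to 4 knockout-labelled and 4 WT arrays over the 20748 rows with 1 gene symbol. Another 1183 rows with several symbols and 1415 with none were left out, and none of those with several held a member. P-values are two-sided, Benjamini-Hochberg adjusted over these rows, and called under 0.05. Counts at an unadjusted p under 0.05 come without the share over all rows, which was not computed and exceeds the 7.4% called. Log2 fold changes are means of knockout-labelled arrays minus means of WT arrays, with the SE of the fit.

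Members, pathway lists and marker lists were chosen with earlier results of these data known. Every member is named. Values per array are given for called members, for members with groups apart and an absolute log2 fold change of at least 0.3, and for Slc3a2, Slc7a5, Slc7a10, Slc7a11, Slc1a5, Slc36a2 and Slc38a2. From each pathway list up to 4 called genes are named, by smallest p. Nr1d1, Arntl and Klb were always named. Light chains were set against Slc3a2 within arrays with an exact permutation test.

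Alternatives were quantile normalization, median centring, leaving out the dimmest 33.3% of rows, all rows of the file, trend and robust variance, array weights, a replicate block, the mean of a gene's rows, each array left out, either pair of knockout-labelled arrays alone, an adjusted p under 0.10 and a minimum of 1.5-fold.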

Additional observations from a re-analysis of the deposited data

Results flagged for a closer look

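For 4 of 86 sets of 4 arrays (each member in each group), the highest or lowest array stood apart from the other 3 by more than 0.829 of the whole range, the critical value of Dixon's test, which chance passes in about 1 in 20 sets. All 4 were WT sets. Slc38a3 read 6.005 log2 in WT array 1, beside 5.121 to 5.244 log2 in the other WT arrays, in the array that was also highest for the epithelial lists. Slc43a2 read 6.647 log2 in WT array 4, beside 6.407 to 6.437 log2, and this highest WT value still lay below every knockout-labelled array. Slc36a1 read 7.024 log2 in WT array 4, beside 7.204 to 7.232 log2. Slc7a14, a dim row, read 4.593 log2 in WT array 3, beside 4.494 to 4.504 log2.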

How the results depend on the processing

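The calls of Slc7a8, Slc7a6, Slc43a2 and Slc1a3 held in all 18 alternative fits, and that of Slc3a2 in all but the fit of knockout-labelled arrays 1 and 2 alone. In each of these fits Slc1a3 was the only member called lower. Members called higher numbered 4 to 6 with single arrays left out, 7 at an adjusted p under 0.10, 3 at a minimum of 1.5-fold, 3 with knockout-labelled arrays 1 and 2 alone and 6 with arrays 3 and 4 alone. The members' median log2 fold change was 0.0276 with arrays 1 and 2 alone and 0.0393 to 0.0688 with single arrays left out. Rows called numbered 913 to 1418 with single arrays left out, 701 with knockout-labelled arrays 1 and 2 alone, 2552 at an adjusted p under 0.10 and 326 at a minimum of 1.5-fold. Slc36a4 was called under quantile normalization, median centring, trend and robust variance and without the dimmest 33.3% of rows (limma adjusted p 0.0390 to 0.0467). With the replicate block, 5 members were higher, Slc36a2 being added (adjusted p = 0.0284), 1 was lower and 1105 rows were called, while the calls of Mccc1 and Txnrd1 were lost (0.103 and 0.0544). Both calls were also lost with median centring (limma adjusted p = 0.0588 for Mccc1 and 0.0699 for Txnrd1). Txnrd1 was not called under quantile normalization (adjusted p = 0.0554) or with all rows of the file (0.0541) either. Deviations from the group means correlated at −0.034, 0.134, −0.0015 and −0.067 between arrays of the same number. Between arrays of different numbers they correlated at −0.078 to 0.095. Such correlations cannot settle whether the shared numbers pair the arrays.

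All results that changed sign were uncalled. With single arrays left out the log2 fold change spanned 0 for Slc43a1 (−0.15 to 0.21), Slc3a1 (−0.0442 to 0.066), Slc7a14 (−0.0781 to 0.0403), Slc1a6 (−0.0378 to 0.0769), Slc1a7 (−0.0702 to 0.0186), Slc36a3 (−0.046 to 0.0872), Slc7a1 (−0.0159 to 0.11), Slc7a15 (−0.10 to 0.0176), Slc38a11 (−0.0793 to 0.0198), Slc38a8 (−0.0136 to 0.15) and Slc7a13 (−0.0791 to 0.0139). With knockout-labelled arrays 1 and 2 alone it became −0.0951 for Slc1a1, −0.00846 for Slc1a6, −0.0489 for Slc36a3, −0.0884 for Slc3a1, 0.0469 for Slc7a14 and 0.0265 for Nr1d1. With arrays 3 and 4 alone it became 0.00292 for Slc1a7, −0.433 for Slc43a1, −0.0111 for Slc43a3 and −0.00731 for Slc7a4, and with median centring 0.00309 for Slc1a7. The cause of these changes was not tested.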
